A study of Mus musculus with 42 samples.

Results

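The comparison of EpSA-fed with chow-fed mouse kidneys at ZT 13 rests on 6 of the 42 RNA-seq samples of the series, 3 per diet, and on 2 of its 14 deposited means. ZT is zeitgeber time in hours after lights on, so ZT 13 falls just after lights off. The chow group comprised wild-type male C57BL/6 mice on a standard chow diet. The EpSA group comprised mice of the same sex, strain and genotype on a high-fat diet that contained 3% EpSA, which stands for epoxystearic acid, an oxidised lipid of heated oils. Mice of both groups started at 6 weeks of age, ate their diet for 14 weeks and lived under a 12 h light and 12 h dark cycle. High-fat diet alone is not among the values used here, and the effects of fat and of EpSA cannot be told apart.

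Each diet and time has a single deposited value per gene, read as the authors' mean of 3 mice, in FPKM (fragments scaled to transcript length and to the library's total). A mean does not show whether 1 mouse or all 3 carry a value, so no difference at ZT 13 alone can be tested and none has an SD. Differences are EpSA minus chow in log2(FPKM + 1) unless another scale is named, and the 6 other times (ZT 1, 5, 9, 17, 21 and 25) serve as the yardstick. The whole table held 56691 genes, and 13344 had a mean of at least 1 FPKM over the 14 columns and were used. The chow mean at ZT 13 summed to 412913 FPKM and the EpSA mean to 423792, within the 400590 to 435621 of the 14 means. The kidney label was met at ZT 13 by high levels of uromodulin, made by the thick ascending limb, with Umod at 824 FPKM in chow and 648 in EpSA. Adrenal markers differed by a mean of 4.36 in the ZT 9 comparison, so a ZT 9 mean stands apart, and by -0.02 at ZT 13.

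Interferon-gamma, made by T and natural killer cells, acts through transcription factors that include IRF1. It switches on GTPases that attack intracellular microbes, the class I and class II molecules that show peptides to T cells, and the immunoproteasome that cuts those peptides. In the kidney, class II molecules are carried mostly by resident macrophages and dendritic cells, and tubule cells can also make them when interferon acts on them. Fat cells surround the kidney and fill its sinus, and their lipid-droplet proteins and hormones mark them in kidney RNA.

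Both of these programmes stood lower in the EpSA mean at ZT 13. Of the 13344 genes, 90 were lower by at least 1 (0.674%) and 38 were higher by at least 1 (0.285%). At a difference of at least 0.5, 451 were lower (3.38%) and 257 higher (1.93%). With the median difference set to 0 at each time these became 363 and 321, and after quantile normalization 370 and 321. The counts past 1 rest on the pseudocount and on the chow mean at ZT 13: they were 176 lower and 111 higher with a pseudocount of 0.1, and 17 lower and 15 higher against the mean of chow ZT 9 and ZT 17. The median over all genes was -0.05, and 8267 genes (62.0%) lay below 0. Genes apart by at least 1 in either direction numbered 128, against 140 for ZT 1, 232 for ZT 21 and between 49 and 66 at the other times. Of the 90 lower genes, 30 belonged to lists of interferon and antigen presentation genes and 13 to a list of fat tissue markers.

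**Figure D1:**
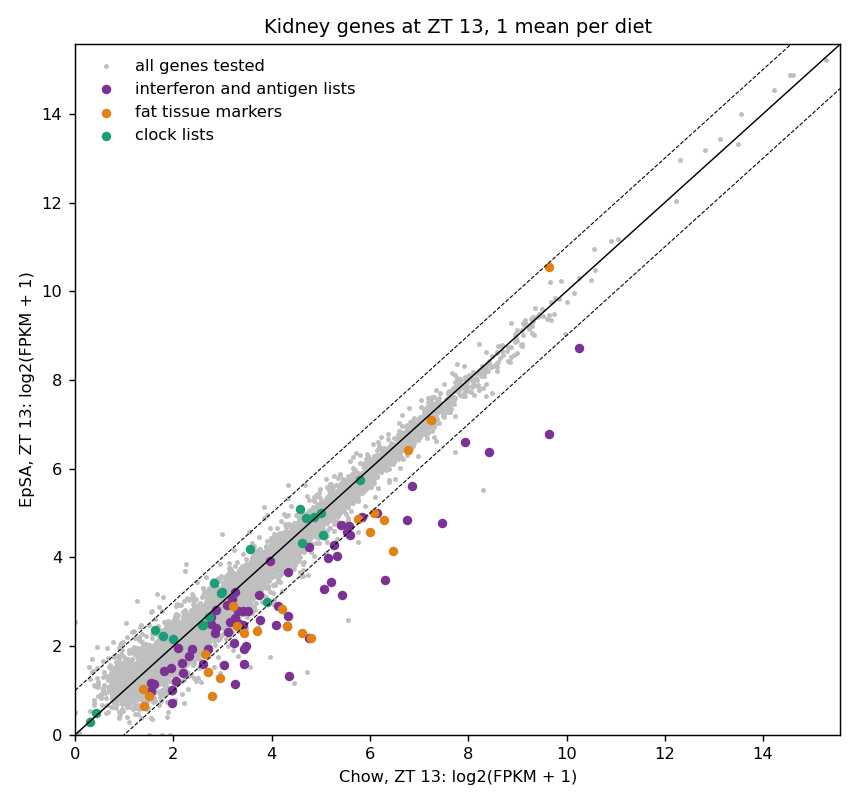
Each point is 1 of the 13344 genes, with its chow mean at ZT 13 on the x axis and its EpSA mean on the y axis, both as log2(FPKM + 1). The solid line marks equal levels and the dashed lines a difference of 1; purple interferon and antigen genes and orange fat tissue genes lie mostly below the solid line, 30 and 13 of them past the lower dashed line.

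The interferon-induced effectors were lower in the EpSA mean in 29 of 29 members tested, of 31 listed. The difference was at least 1 in 12 of them and at least 0.5 in 21, with a median of -0.79. Tgtp1, Igtp, Irgm1, Irgm2 and Iigp1 encode immunity-related GTPases, which act on the vacuoles of intracellular parasites and bacteria. Read at ZT 1, 5, 9, 13, 17, 21 and 25, Igtp stood at 76.0, 18.02, 21.4, 78.1, 10.6, 8.65 and 12.0 FPKM in chow. In EpSA the same times gave 8.82, 12.4, 10.7, 10.2, 14.8, 12.9 and 8.97 FPKM. The chow means at ZT 1 and ZT 13 were thus the high ones, and the EpSA means were flat. At ZT 13 the Igtp level was 7.64-fold lower in EpSA.

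The 150 bases before the start sites of 3 of these GTPase genes and of Irf1 are shown because they hold the letters that interferon-activated factors are known to bind. Capitals mark TTCNNNGAA, the gamma-activated site through which interferon-gamma acts, and GAAANNGAAA, the interferon-stimulated response element bound by interferon regulatory factors. The sequences run 5′ to 3′ on the gene's strand, from RefSeq on GRCm38.p6 (Tgtp1 chr11:48992247-48992396, minus strand; Igtp chr11:58199406-58199555, Irgm2 chr11:58214827-58214976 and Irf1 chr11:53769864-53770013, plus strand).
Tgtp1: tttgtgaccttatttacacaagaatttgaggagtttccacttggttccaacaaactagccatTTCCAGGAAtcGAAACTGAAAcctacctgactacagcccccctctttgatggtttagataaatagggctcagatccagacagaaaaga
Igtp: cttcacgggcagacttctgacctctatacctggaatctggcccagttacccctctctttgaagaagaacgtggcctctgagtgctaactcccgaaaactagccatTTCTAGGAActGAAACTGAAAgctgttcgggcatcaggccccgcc
Irgm2: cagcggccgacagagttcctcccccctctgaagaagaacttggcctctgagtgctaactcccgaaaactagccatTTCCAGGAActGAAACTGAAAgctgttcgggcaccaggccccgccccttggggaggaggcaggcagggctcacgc
Irf1: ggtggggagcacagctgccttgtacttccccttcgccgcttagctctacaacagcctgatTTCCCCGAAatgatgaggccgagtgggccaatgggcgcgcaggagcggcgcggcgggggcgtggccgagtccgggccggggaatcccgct

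In Tgtp1, Igtp and Irgm2 the gamma-activated letters stood 5′ of the response element with 2 bases between them. Irf1 had the gamma-activated letters alone, beginning at position -90, where -1 is the base before the start. Both strands were searched in 300 bases around each start, 250 before and 50 after, and the matches of the 2 motifs do not overlap in the stretches shown. Of the 68 interferon and antigen genes tested, 52 had a promoter sequence. Of those, 21 (40.4%) held GAAANNGAAA against 3.99% of all 27025 genes with a promoter. TTCNNNGAA was in 13 (25.0%) against 9.55%. Genes lower by 1 outside these lists held TTCNNNGAA about as often, in 7 of 31 (22.6%), and GAAANNGAAA in 2 of 31 (6.45%). Among the members lower by 1 the response element was in 8 of 22 (36.4%), and among the other members in 13 of 30 (43.3%). TTCNNNGAA was in 6 of those 22 (27.3%) and in 7 of those 30 (23.3%). Neither order was tested. Matching letters are a description and do not show that a factor was bound.

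Tgtp1 had 19.3 FPKM in chow and 1.52 in EpSA at ZT 13, a difference of -3.01. Its 6 other chow means ran from 0.93 to 17.7 FPKM, and its 6 other EpSA means from 1.39 to 2.32. Tgtp1 has a near-identical neighbour, Tgtp2, and the Igtp and Irgm2 gene models overlap, so how their reads were divided is uncertain. Irgm2 stood at 42.1 FPKM in chow and 7.82 in EpSA. Iigp1 had 26.3 and 3.56 FPKM, and the guanylate-binding protein gene Gbp6 had 8.55 and 1.22. Those values put the GTPases among the widest differences of all genes tested. Ifit1 and Rsad2, looked up after these values were seen, were closer together than these GTPases, with 7.59 against 3.98 FPKM and 8.50 against 8.38. The effectors as a list ran from -3.01 to -0.02 with a median of -0.79. Targets of type I interferon and of interferon-gamma were not compared as groups.

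Regulators and chemokines of the interferon response were lower in 15 of 15 tested, of 17 listed, by at least 1 in 3 and by at least 0.5 in 9, with a median of -0.56. Irf1, which drives class I and GTPase genes, had 16.0 FPKM in chow and 4.55 in EpSA at ZT 13. The other chow means of Irf1 lay between 4.78 and 12.9 FPKM and the other EpSA means between 5.01 and 6.07, so the chow value was the highest of the 14 and the EpSA value the lowest. Cxcl10 and Cxcl9, chemokines that draw T cells, had 8.39 against 3.18 and 3.16 against 1.32. Interferon genes themselves were near the floor: Ifng, looked up after these values were seen, was 0.23 FPKM in chow and listed at 0 in EpSA at ZT 13, with 0.293 FPKM as its highest of the 14 means.

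Antigen presentation genes were lower throughout. Class II genes were lower in 8 of 8, by at least 1 in 7, with a median of -1.81, the widest of 43 lists. Class I genes were lower by at least 0.5 in 11 of 11 tested (13 listed) and by at least 1 in 5, with a median of -0.97. Cd74, the invariant chain that guides class II molecules, had 796 FPKM in chow and 109 in EpSA at ZT 13. In chow its level was 604, 273 and 301 FPKM at ZT 1, 5 and 9 and between 99.0 and 116 from ZT 17 on. The EpSA means of Cd74 held between 101 and 133 FPKM at all 7 times. The chow curve thus came down to the EpSA level after ZT 13.

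H2-Ab1 and H2-Aa, the chains of the I-A class II molecule, had 175 against 26.5 and 107 against 27.5 FPKM. H2-DMb2, a chain of the peptide exchange factor H2-DM, had 21.0 against 1.25 FPKM, the widest difference among the genes named here at -3.29. Ciita, the master activator of class II genes, had 2.91 FPKM in chow and 0.65 in EpSA. Among class I genes, H2-K1 stood at 344 and 81.9 FPKM and H2-D1 at 244 and 95.8. B2m, the light chain shared by class I molecules, had 1223 and 421 FPKM, and the peptide transporter gene Tap1 9.85 and 2.80. H2 genes are a family of near-identical copies, and their reads may be split between them.

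Immunoproteasome subunits were lower in 5 of 5, by at least 1 in the 3 catalytic ones. Psmb8 had 18.9 FPKM in chow and 4.44 in EpSA, Psmb9 7.16 and 1.97, and Psmb10 16.4 and 6.48. The constitutive proteasome, which carries the everyday catalytic subunits, gave a contrast: 0 of 11 subunits were apart by 0.5, and the median was -0.09. Over the 5 lists together, 68 of the 74 listed genes were tested, and 68 of 68 lay below 0, against 62.0% of all genes. Of these, 30 (44.1%) were lower by at least 1 and 54 by at least 0.5, with a median of -0.94. These lists were drawn up with results of these data known, so their counts describe the means and are no test.

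**Figure D2:**
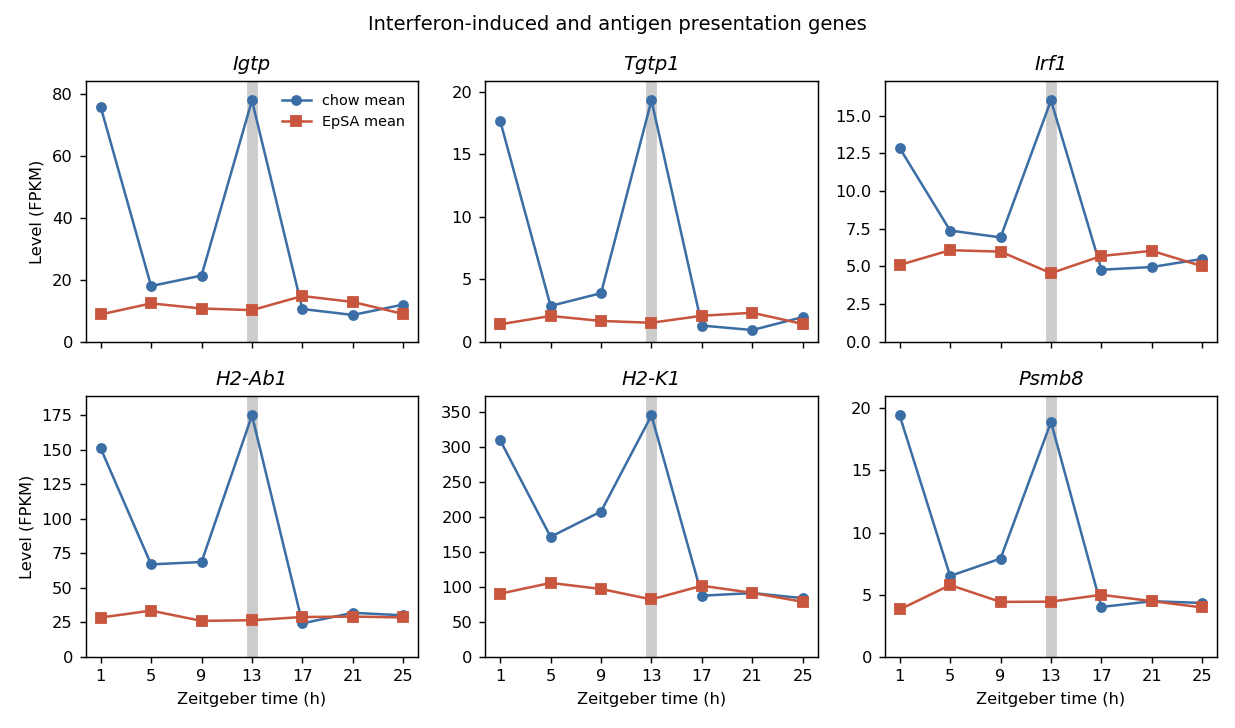
Levels in FPKM on linear axes from 0, by zeitgeber time in hours, for 6 interferon-induced and antigen presentation genes; each point is 1 deposited mean (blue circles chow, red squares EpSA) and the grey band marks ZT 13. The chow means are high at ZT 1 and ZT 13, where Igtp has 76.0 and 78.1 FPKM, and the EpSA means stay low at all 7 times.

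Over all 68 genes the chow value at ZT 13 was high for its diet. It was the highest of the 7 chow means in 20 and the second-highest in 35, where 9.97% of all genes had it highest and 23.1% had it among the 2 highest. The EpSA value was the lowest of the 7 EpSA means in 5 of the 68, where 22.4% of all genes had it lowest. Chow ZT 13 lay a median of 0.66 above the mean of chow ZT 9 and ZT 17, and EpSA ZT 13 was at -0.24 relative to its own neighbours. With those chow neighbours as the reference, the medians were -0.28 for the effectors, -0.17 for regulators and chemokines, -0.25 for class I, -0.44 for class II and -0.092 for the immunoproteasome.

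Time by time, the mean difference of the 68 genes was -1.30, -0.19, -0.39, -1.07, 0.38, 0.41 and -0.01 at the 7 times from ZT 1 to ZT 25. ZT 1 and ZT 25 are the same hour of consecutive days, and only ZT 1 showed the gap. Of the 30 members lower by 1 at ZT 13, 29 were also lower by 1 at ZT 1, but only 1 was at ZT 5, 4 were at ZT 9 and 0 later. Over all genes, 42 were lower by 1 at both ZT 13 and ZT 1, which is 46.7% of the 90 at ZT 13 and 38.2% of the 110 at ZT 1. The comparisons at ZT 1 and ZT 13 share no samples.

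**Figure D3:**
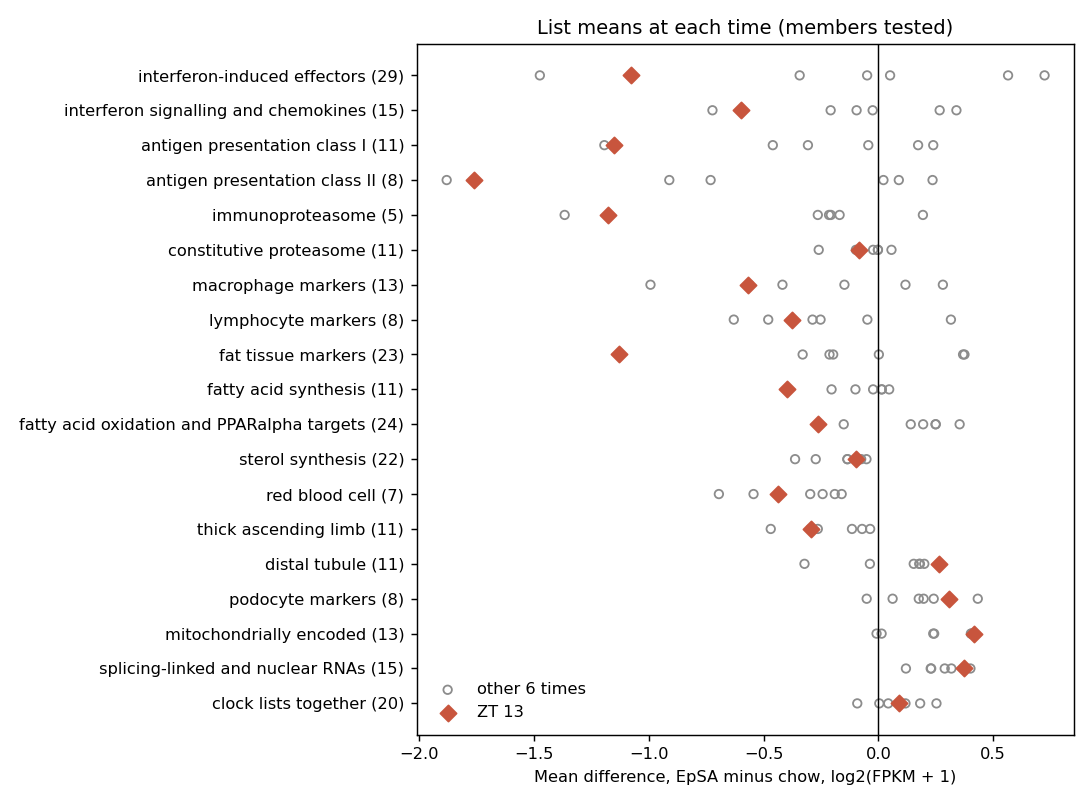
Mean difference, EpSA minus chow in log2(FPKM + 1), over the tested members of 19 lists, whose member counts stand in brackets; red diamonds are ZT 13 and open circles the 6 other times. In each of the 5 interferon and antigen lists ZT 13 is second from the left, after ZT 1, and class II also lies at -0.73 and -0.91 at ZT 5 and ZT 9, while fat tissue markers are lowest at ZT 13, at -1.13, with no other time below -0.33.

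Markers of immune cells were also lower at ZT 13. Macrophage markers lay below 0 in 13 of 13 tested (15 listed), by at least 0.5 in 8 and by at least 1 in 1, with a median of -0.65, or -0.22 against the mean of chow ZT 9 and ZT 17. From ZT 1 to ZT 25 their mean difference was -0.99, -0.56, -0.42, -0.57, 0.28, 0.12 and -0.15. At ZT 5 the macrophage mean was thus about as low as at ZT 13, whereas the 68 interferon and antigen genes stood at -0.19 at ZT 5. Lyz2, the lysozyme of macrophages, had 52.9 FPKM in chow and 22.9 in EpSA, and the complement gene C1qb 28.0 and 15.23. Summed over the list, chow held 168 FPKM at ZT 13 (99.4 to 238 at the other times) and EpSA 94.1 (94.3 to 130). Lymphocyte markers were mostly too low to test, with 8 of 20 passing the level filter and a median of -0.38. None of the macrophage or lymphocyte markers was at 0 in either mean at ZT 13, although the T cell gene Cd3e had only 0.297 and 0.16 FPKM. In whole kidney, fewer cells of a type and less RNA per cell cannot be told apart, and the part of immune cells in the class I and class II differences was not tested.

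Some genes outside the interferon and antigen lists were also high in chow at ZT 13. Pigr, the receptor that carries antibodies across epithelia, had 315 FPKM in chow and 44.9 in EpSA at ZT 13. Its other chow means lay between 43.2 and 203 FPKM and its EpSA means between 30.3 and 54.7. Pigr was also lower in EpSA at ZT 17 and ZT 21, with differences of -0.61 and -0.99, where the mean over the 68 genes was 0.38 and 0.41. C4b, a complement component, had 10.7 and 1.90 FPKM, and Ubd, a ubiquitin-like protein induced by interferon, 14.6 and 2.38. For Pigr, C4b and Ubd the chow value at ZT 13 was the highest of all 14 means. Among 9 complement and acute-phase genes tested 7 lay below 0, 3 of them by at least 0.5, where 62.0% of all genes lay below 0.

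Fat tissue markers were the other lower group, and there the chow and the EpSA mean at ZT 13 both stood off their neighbours in time. Of 24 markers 23 were tested, 22 lay below 0, 18 by at least 0.5 and 13 (56.5%) by at least 1, with a median of -1.14. Cidea, a lipid-droplet protein typical of brown fat, had chow means of 11.9, 24.0, 7.62, 26.9, 15.4, 16.8 and 17.6 FPKM from ZT 1 to ZT 25. In EpSA it had 24.0, 30.6, 6.56, 3.54, 12.8, 12.1 and 15.18 FPKM. The EpSA value at ZT 13 was the lowest of the 14 and the chow value at ZT 13 the highest in chow.

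Ucp1, the uncoupling protein that makes heat in brown fat, had 23.5 FPKM in chow and 3.88 in EpSA at ZT 13, while its other means ran from 6.56 to 90.0 in EpSA and from 13.5 to 77.5 in chow. Cfd, the fat cell hormone adipsin, had 87.3 against 16.8 FPKM. Adipoq, the hormone adiponectin, had 17.6 against 6.19, and the droplet coat gene Plin1 6.74 against 1.43. Lep, which encodes leptin, had 1.85 against 0.847 FPKM. Each of these EpSA values was the lowest of the 7 EpSA means. Cox8b, a respiratory chain subunit of brown fat and muscle and not on the list, had 46.2 and 5.0 FPKM, a difference of -2.98.

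**Figure D4:**
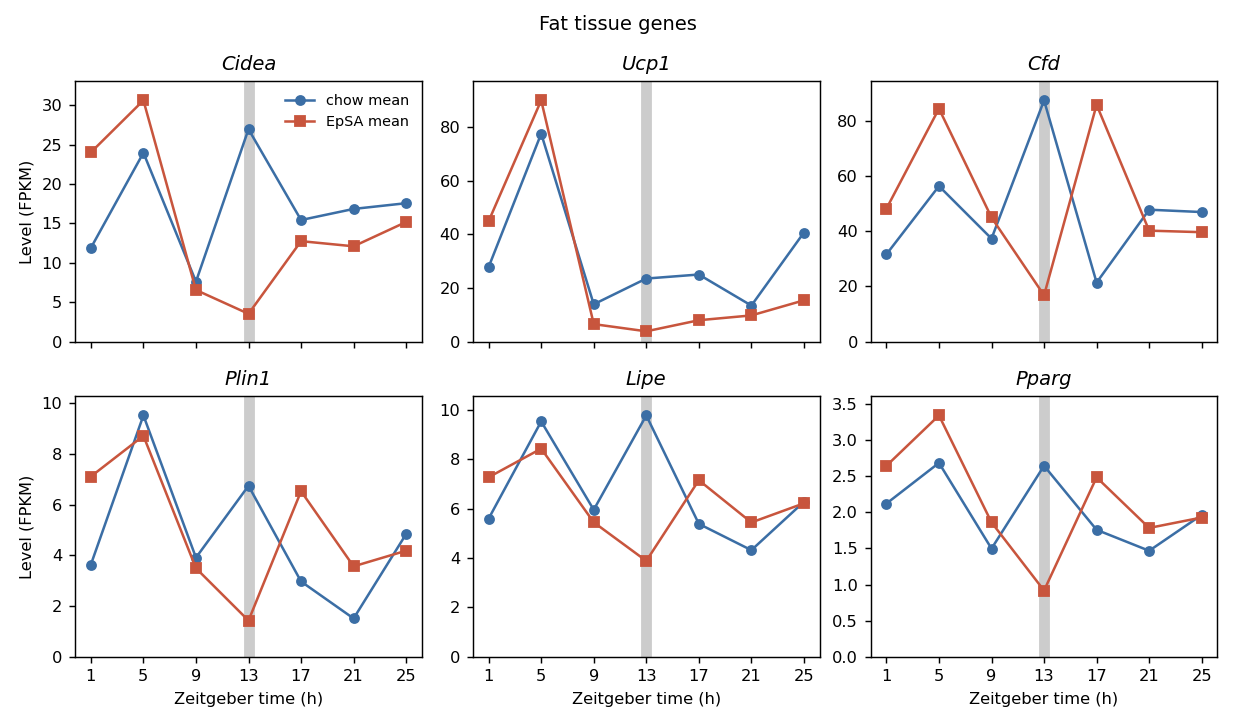
Levels in FPKM on linear axes from 0, by zeitgeber time in hours, for 6 genes of fat cells; each point is 1 deposited mean (blue circles chow, red squares EpSA) and the grey band marks ZT 13. The EpSA curves are at their lowest at ZT 13, with Cidea at 3.54 and Ucp1 at 3.88 FPKM, and both diets vary widely between times.

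Over the 23 markers, the EpSA value was the lowest of the 7 EpSA means in 14, and the chow value the highest of the 7 chow means in 4. Chow ZT 13 lay a median of 0.62 above the mean of its ZT 9 and ZT 17, and EpSA ZT 13 was at -0.71 relative to its own. The list mean differed by -1.13 at ZT 13 and by between -0.33 and 0.38 at the 6 other times, and of the 13 lower by 1, 0 were so at ZT 1 and ZT 5, 2 at ZT 9 and 1 each at ZT 17, 21 and 25. Against the mean of chow ZT 9 and ZT 17 the list median was -0.45. The mean level of the markers, in log2(FPKM + 1), was 3.27 in EpSA at ZT 13 against 3.59 to 4.65 at its other times, and 4.40 in chow against 3.77 to 4.65. The 1 marker above 0 was Pck1, which proximal tubule cells also express strongly. How much fat was left on each kidney is not recorded in the labels used here.

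Several genes of lipid metabolism were lower in step, and fat tissue shares many of them. Fatty acid synthesis genes lay below 0 in 11 of 11, by at least 0.5 in 4, with a median of -0.22. Of all genes tested, 62.0% lay below 0, 3.38% were lower by at least 0.5 and 1.93% were higher by at least 0.5. Scd1, a fatty acid desaturase, had 67.1 FPKM in chow and 31.0 in EpSA, and Fasn, the fatty acid synthase, 8.81 and 4.50. Scd1, Fasn and Acaca are also among the fat tissue markers counted above. The Scd1 difference was -1.10 at ZT 9 as well, and 0.93 at ZT 1. Pparg, the master regulator of fat cells, had 2.64 FPKM in chow and 0.917 in EpSA. Fatty acid oxidation genes and targets of PPARalpha had a median of -0.18 over 24 tested, with 3 lower by at least 0.5. Among them were Cidec, which is also a fat tissue marker, at 18.9 and 4.51 FPKM, and Pdk4, a brake on glucose oxidation, at 15.5 and 7.22. Sterol synthesis genes had 0 of 22 apart by 0.5 and a median of -0.10. Beside these values stand the fat tissue markers above, and their part in the lipid genes was not tested.

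Genes higher in the EpSA mean were fewer and of another kind. Of the 38 higher by at least 1, 10 (26.3%) were protein coding in the GENCODE annotation, against 85.0% of the genes tested and 82.2% of the lower ones. MicroRNA genes made up 7 (18.4%, against 0.54% of all), snoRNAs 3 and snRNAs 2, and 10 were not in the annotation. Exons summed to under 300 bases in 16 of the 38, against 310 of all 13344 genes and 7 of the 90 lower ones. The 10 outside the annotation have no exon length. In such short genes a few fragments give a large FPKM. None of the 38 belonged to a list. In 18 the EpSA value at ZT 13 was the highest of all 14 means, and in 16 the chow value was the lowest, extremes that choosing genes by this difference favours.

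Slc16a14, of the monocarboxylate transporter family, had 6.94 FPKM in chow and 21.9 in EpSA, a difference of 1.53. Its 6 other means ran from 8.49 to 16.4 FPKM in chow and from 6.58 to 16.7 in EpSA, so each value at ZT 13 was an extreme of its own diet. Slc25a25, a mitochondrial carrier of ATP-Mg and phosphate, had 13.3 and 34.3 FPKM. Noct, a rhythmic phosphatase of NADPH known as nocturnin, had 1.95 and 5.95 FPKM, while its 12 other means stayed between 1.45 and 2.88. The Noct value in EpSA was thus 3.05-fold that of chow and stood alone among the 14.

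Col27a1, a fibrillar collagen, had 19.2 and 48.2 FPKM, and its other EpSA means lay between 20.4 and 39.9. Cpeb3, a regulator of mRNA translation, had 13.9 and 30.0 FPKM at ZT 13 and was higher in EpSA at all 7 times. Over the 6 other times its mean difference was 0.67 ± 0.06 (SE), the only gene past the threshold there (limma, adjusted p = 0.0202; 1 of 13344, 0.00749%, and 0 lower). That fit does not use the ZT 13 means, where the Cpeb3 difference was 1.06. Without ZT 1, 5, 9, 17, 21 or 25 in turn the count was 0.

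Pck1, the gluconeogenic enzyme of the proximal tubule, had 796 FPKM in chow and 1494 in EpSA at ZT 13. All 13 other means of Pck1 lay between 628 and 1173 FPKM, so the EpSA value was the highest of the 14. Slc5a12, a lactate transporter of the same cells, had 20.0 and 34.8 FPKM. Ren1, which encodes renin, had 33.4 and 53.3 FPKM, and was as high in EpSA at ZT 5, at 55.8. Ccn2, a matrix-associated growth factor, had 18.1 and 30.5 FPKM, the widest of 23 matrix genes, whose median was 0.02.

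**Figure D5:**
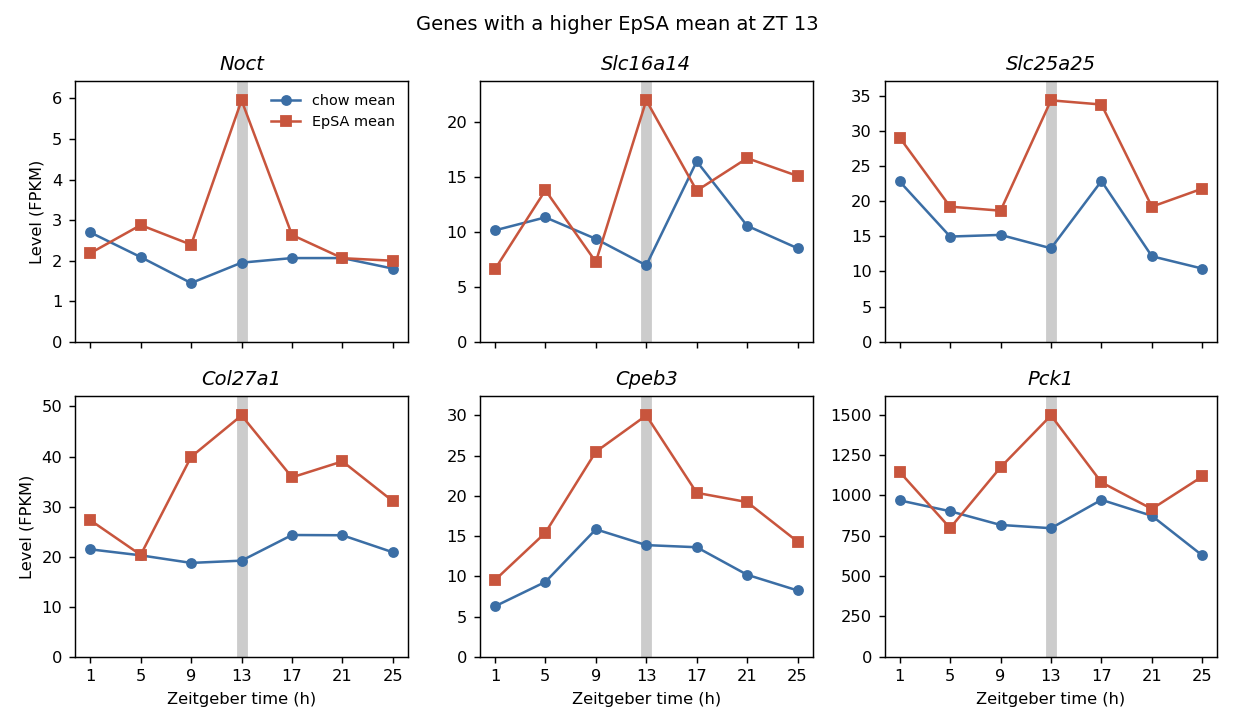
Levels in FPKM on linear axes from 0, by zeitgeber time in hours, for 6 genes with a higher EpSA mean at ZT 13; each point is 1 deposited mean (blue circles chow, red squares EpSA) and the grey band marks ZT 13. Noct has 5.95 FPKM in EpSA at ZT 13 and at most 2.88 in the 13 other means, whereas Cpeb3 is higher in EpSA at all 7 times.

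The widest positive differences were those of 3 microRNA genes, whose mature sequences from RefSeq (GRCm38.p6) are given with the seed, bases 2 to 8, in capitals. Of 9 microRNA genes apart by at least 1 in either direction, 6 had a mature sequence in the table. The seeds below differ from one another, so the genes share no seed family.
mmu-miR-5100: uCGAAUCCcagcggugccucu
mmu-miR-7667-5p: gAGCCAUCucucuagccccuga
mmu-miR-7667-3p: aGGGACUGcagagauggcacug
mmu-miR-7085-5p: cAGUGGGGgcaggccagcagga
mmu-miR-7085-3p: uAGCUGGCcucuccccaccuuc

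Mir5100 was listed at 0 in chow at ZT 13 and stood at 4.87 FPKM in EpSA, with 0.65 to 3.21 FPKM in the 6 other chow means. Mir7667 was also listed at 0 in chow and at 4.87 FPKM in EpSA, and it was at 0 in chow at ZT 5 and ZT 21 too. Mir7085 had 1.39 and 7.11 FPKM. In all 3 the EpSA value was the highest of the 14 means. The values belong to the precursor gene and do not say which arm was present, and with the depth unknown no counting error can be given.

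The circadian clock, in which BMAL1 and CLOCK drive the Per and Cry repressors and the Rev-erb genes, showed differences in both directions. Of 20 clock genes tested of 21 listed, 12 lay above 0 and 7 below, with a median of 0.05. Past 0.5, 4 were higher and 2 lower. Over all genes tested, 37.9% lay above 0 and 62.0% below, with 1.93% higher and 3.38% lower by at least 0.5. Per1 and Per2, which encode repressors, had 6.08 against 9.65 and 10.7 against 17.2 FPKM. Nfil3, a repressor of output genes, had 2.08 and 4.15 FPKM.

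Nr1d1, which encodes REV-ERBalpha, had 13.9 FPKM in chow and 6.94 in EpSA, and the output activator Dbp 32.0 and 21.8. In chow Nr1d1 stood between 13.9 and 17.98 FPKM at ZT 5, 9 and 13, and in EpSA it was at 18.7 at ZT 9 before the 6.94 of ZT 13. Dbp had its highest chow mean at ZT 13 and its highest EpSA mean at ZT 9, at 38.9 FPKM. Arntl, which encodes BMAL1, was near its daily low in both diets, at 0.35 and 0.40 FPKM. Npas2, a partner of BMAL1, was at 0.23 FPKM in both.

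Kidney cell markers differed less. Podocyte markers lay above 0 in 8 of 8, with a median of 0.34 and 0 past 0.5, and distal tubule markers in 9 of 11, with a median of 0.35. Calb1, the calcium-binding protein of the distal tubule, had 49.4 FPKM in chow and 76.3 in EpSA. Thick ascending limb markers lay below 0 in 10 of 11, by at least 0.5 in 3, with a median of -0.25. Of 10 early proximal tubule markers 4 were higher by at least 0.5, among them Gatm, of creatine synthesis, at 110 and 164 FPKM. Its chow value at ZT 13 was the lowest of the 7 chow means, and against the mean of chow ZT 9 and ZT 17 the difference was -0.03. Red blood cell genes, with a median of -0.46, lay below 0 in 6 of 7, and tubular injury genes, at -0.14, in 10 of 12. The red blood cell mean was below 0 at all 7 times, from -0.695 to -0.16. Over all genes tested, 62.0% lay below 0 and 37.9% above, with a median of -0.05. By at least 0.5, 3.38% of all genes were lower and 1.93% higher.

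RNAs of mitochondria and nuclei were higher as whole lists, and not at ZT 13 alone. All 13 protein genes of the mitochondrial genome lay above 0, against 37.9% of all genes, with a median of 0.36. Their mean difference was 0.416 at ZT 13, 0.403 at ZT 9 and 0.405 at ZT 21, and 0.014 at ZT 17 and -0.008 at ZT 25. Nuclear genes of the respiratory chain had a median of 0.00, with 0 of 21 past 0.5. mt-Nd5, a subunit of complex I, had 5068 and 7995 FPKM. All 15 splicing-linked and nuclear RNAs lay above 0 as well, with a median of 0.36, among them Malat1 at 296 and 445 FPKM. The mean of these RNAs was above 0 at all 7 times, from 0.12 at ZT 25 to 0.401 at ZT 21, with 0.374 at ZT 13. The 10 most abundant genes took 38.1% of the summed FPKM in chow and 42.7% in EpSA at ZT 13. FPKM are shares of a total, so the part of these RNAs in the other differences was not tested.

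Whether ZT 13 stood apart from the other times was tested with limma on the 7 differences of each gene. No gene passed an adjusted p of 0.05 above (0 of 13344, 0.0%) or below (0 of 13344, 0.0%), and 349 (2.62%) had an unadjusted p under 0.05. The smallest p was that of Pparg, whose difference lay 1.12 below the mean of the other times, a departure of -1.12 ± 0.15 (SE), with an unadjusted p of 4.69e-05 and an adjusted p of 0.626. In the fat tissue list 16 of 23 had an unadjusted p under 0.05, and in the 5 interferon and antigen lists 3 of 68, where ZT 1 differed alike. Over the 6 other times 1737 genes (13.0%) had an unadjusted p under 0.05. The error in this test is the spread between times, not between mice, so it does not measure how much 3 mice on 1 diet differ.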

How the data were processed

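Kidney RNA was sequenced as paired-end reads, per the labels' protocols; the aligner, counter, build and annotation are not given in the sources used here. Deposited by the authors was 1 table per diet with 7 expression columns, whose values are taken as FPKM: the lowest nonzero value falls with exon length (Spearman -0.958 across 9274 genes). The file headers do not name the unit. In 100% of values the last decimal is 0, 3 or 7, as in means of 3, so depth and replicate error are unknown. The EpSA table carries another abbreviation and was matched through the sample descriptions.

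Genes averaging at least 1 FPKM over the 14 columns were compared as log2(FPKM + 1), pseudocount 1, which understates changes of low genes. The planned model was limma 3.58.1 (R 4.3.3) on 7 differences with an indicator of ZT 13 (5 residual degrees of freedom), Benjamini-Hochberg adjusted over 13344 genes and tested on simulated data. Named genes were the 15 widest differences in each direction with a gene symbol of their own, up to 6 per list at 0.3 or more in size, all clock genes, and the 5 smallest p of each test and direction. Others were named as list contrasts or after their values were seen (Ifng, Ifit1, Rsad2, Cd3e, Lep, Adipoq). Some genes the rule selects are not named. Members, lists and thresholds were chosen with earlier results of these data known. Symbols matched 52073 of 56691 identifiers; gene types come from GENCODE M21. Alternatives covered pseudocount, filter, scaling, omitted times and the chow reference. Python 3.11.15, pandas 2.3.3 and matplotlib 3.10.9 served for other steps.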

Additional observations from a re-analysis of the deposited data

Results flagged for a closer look

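For 215 named genes and 43 lists the 7 differences were screened for a ZT 13 value far from the 6 others, by Dixon's gap over the range, above its 95% critical value for 7 values. At that value chance flags about 1 in 20 groups when a far value at any of the 7 times counts. Only a far value at ZT 13 was counted here, so 1 in 20 is no yardstick for the 9 genes and 0 lists flagged. Most of the 215 genes were named for the size of their ZT 13 difference, and Cidea, Lipe, Pparg, Krt5, Aacs and Ide for a small departure p, which favours a flag, so the screen is a description and no test. Lower in EpSA at ZT 13 and far from the other times were the fat cell genes Cidea (-2.62), Plin1 (-1.67), Lipe (-1.14, hormone-sensitive lipase) and Pparg (-0.93), and Acacb (-0.62), a carboxylase of fatty acid metabolism. Krt5 (-0.89), a keratin of urothelium, and Junb (-0.75), an immediate early factor, were flagged in the same direction. Higher and far from the other times were Aacs (0.58), an acetoacetate-activating enzyme, at 47.1 FPKM in chow and 70.8 in EpSA, and Ide (0.72), the insulin-degrading enzyme. Ide was lower in EpSA at the 6 other times, by between 0.12 and 0.69 on the log2 scale. None of these passed the departure test after adjustment.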

How the results depend on the processing

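No paired analysis was possible because the columns are means that carry no replicate number, and leaving out a replicate could not be run for the same reason. Genes higher by 1 numbered 38, and 111 with a pseudocount of 0.1, 4 with 5, 10 among the 7123 genes averaging 5 FPKM or more, and 15 against the mean of chow ZT 9 and ZT 17. Genes lower by 1 numbered 90, and 176, 38, 52 and 17 in the same order. Other scalings and no filter kept both counts within 1.5 times. The departure test gave 0 calls, and 47 above and 41 below without a filter, over 38370 genes. The 1 gene higher over the other times became 0 with no filter, with columns scaled to one sum, and without ZT 1, 5, 9, 17, 21 or 25. With the chow neighbours as reference the medians became -0.28 for interferon effectors, -0.22 for macrophage markers, -0.17 for interferon signalling, -0.25 for class I, -0.44 for class II, -0.092 for the immunoproteasome and -0.45 for fat tissue markers, since this alternative replaces the chow ZT 13 mean. Nkg7 (0.14), Slc34a3 (-0.055) and Gatm (-0.027) turned sign there. No adrenal marker averaged 5 FPKM, so that list had no value under the stricter filter. Single-time values rest on 1 mean per diet of unknown depth.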
